A study of Hordeum vulgare with 12 samples.

Results

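The barley (Hordeum vulgare) mutant nal1 was compared with its wild type, the cultivar Sebastian, by RNA-seq of the growing shoot base. The 6 libraries concerned, 3 of nal1 in the Sebastian background and 3 of Sebastian, were taken by their genotype labels from a series of 12. The other 6 libraries are of the mutant blf13 in the Bonus background and of the cultivar Bonus, and they serve here as a second mutant and wild type pair. All 4 genotypes were 7 days old and had leaf 1 removed before the lowest centimetre of the shoot, which holds the apex, was frozen. Each library is a biological replicate made from a pool of 6 plants, so p-values describe the spread between pools. The labels name the nal1 allele but do not describe it, and the contrast includes whatever else separates the line genetically from Sebastian.

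NARROW LEAF1 is best known from rice, where it encodes a plant protein with a trypsin-like protease domain. Rice plants that lose it form narrow leaves with fewer veins, and their polar auxin transport is reduced. The shoot base sampled here contains the dividing and expanding zone of young grass leaves, in which final leaf width is set.

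The deposited files give gene IDs of the HORVU.MOREX.r3 series without names or products, and 0 of 81687 IDs could be matched to the reference table used here. Genes are therefore given by ID, with the chromosome and the rank in ID order, and no role is assigned to any of them. For the same reason the mutated gene, and the markers of leaf or meristem cells, could not be used to check the labels. In bulk samples, fewer cells of a type and less RNA per cell cannot be told apart. Levels are CPM, the share of a library's counts scaled to a common total, computed from the raw counts with TMM library sizes. They are not divided by gene length, so the level of a gene is compared between libraries. Where genes are grouped by level, gene length is mixed with expression. Reads in genes came to between 14831979 and 30734248 in nal1 libraries and between 23296179 and 62995658 in Sebastian libraries. Log2 CPM correlated across genes with r of 0.994 to 0.997 between libraries of the same genotype and of 0.989 to 0.993 between nal1 and Sebastian. Genes are not independent replicates, and these values describe the libraries only. The first principal component of the 6 libraries held 53.7% of the variance, with all nal1 libraries on one side and all Sebastian libraries on the other. On the second, with 18.0% of the variance, nal1 replicate 1 stood apart from the other nal1 libraries, at 23.6 against −8.15 and −10.7.

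The genes named by rule were chosen among changed genes without overlap of the nal1 and Sebastian libraries. Their lack of overlap is therefore not a separate result. The clearest single difference between the genotypes was a fall on chromosome 2H. HORVU.MOREX.r3.2HG0190650, at rank 9518 on 2H, stood at 35.3, 33.0 and 35.7 CPM in the nal1 libraries, against 174, 175 and 182 CPM in the Sebastian libraries. The nal1 level was 0.196 of the Sebastian level, with no overlap and a gap many times the spread of either genotype (34.7 ± 1.49 CPM in nal1 and 177 ± 4.05 CPM in Sebastian, SD, n = 3 each). Its log2 fold change of −2.35 (SE 0.06) had the smallest p of all genes tested (edgeR quasi-likelihood test, Benjamini-Hochberg adjusted p = 3.38e-11). The blf13 libraries had 177, 183 and 176 CPM and the Bonus libraries had 182, 199.6 and 182 CPM, close to the Sebastian level.

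Next in order of p was HORVU.MOREX.r3.5HG0433990, at rank 1453 on 5H. It had 3.29, 3.22 and 3.39 CPM in nal1, against 18.7, 17.8 and 19.2 CPM in Sebastian. The nal1 libraries lay within 0.2 CPM of each other and far below every Sebastian library (log2 fold change −2.50, SE 0.09, edgeR adjusted p = 4.11e-09). HORVU.MOREX.r3.3HG0298070, at rank 7998 on 3H, fell further but was less even, with 2.62, 1.77 and 1.67 CPM in nal1 and 17.6, 10.99 and 9.79 CPM in Sebastian. Its log2 fold change was −2.69 (SE 0.37, edgeR adjusted p = 0.00133). Both are the largest decreases among genes with at least 1 CPM in each genotype.

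The largest increases among genes of at least 1 CPM in each genotype were on 1H and 3H. HORVU.MOREX.r3.1HG0000260, the gene of rank 26 on 1H, had 10.2, 9.59 and 17.9 CPM in nal1, against 1.89, 2.04 and 1.26 CPM in Sebastian. Replicate 3 was the highest of the nal1 libraries, and the lowest nal1 library was still above every Sebastian library. The nal1 mean was 7.26-fold the Sebastian mean (log2 fold change 2.90, SE 0.28, edgeR adjusted p = 9.51e-05). HORVU.MOREX.r3.3HG0322550, at rank 10446 on 3H, had 5.43, 4.95 and 4.52 CPM in nal1 and 1.08, 1.00 and 0.986 CPM in Sebastian, a 4.87-fold difference without overlap (log2 fold change 2.28, SE 0.21, edgeR adjusted p = 6.59e-05).

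Among abundant genes, with a mean of at least 100 CPM, changes were smaller apart from the fall of 2HG0190650 described above. HORVU.MOREX.r3.1HG0002450, at rank 245 on 1H, had 209.9, 239.7 and 219 CPM in nal1, against 66.75, 106 and 89.2 CPM in Sebastian. The lowest nal1 library was well above the highest Sebastian library (log2 fold change 1.35, SE 0.18, edgeR adjusted p = 0.00105). HORVU.MOREX.r3.4HG0335650, at rank 448 on 4H, had 320.3, 405 and 441 CPM in nal1 and 170.0, 203 and 211 CPM in Sebastian, where nal1 replicate 1 was the lowest of its genotype and no libraries overlapped. The nal1 mean of 389 ± 62.2 CPM was 2.00 times the Sebastian mean of 195 ± 21.8 CPM (SD, n = 3 each; edgeR adjusted p = 0.000829). After 2HG0190650, the largest decrease at this level was that of HORVU.MOREX.r3.1HG0008240, at rank 824 on 1H, with 150.0, 137 and 131 CPM in nal1 and 241, 248 and 208 CPM in Sebastian (log2 fold change −0.74, SE 0.15, edgeR adjusted p = 0.00858). This gene differed far more between the cultivars, with 44.3, 48.5 and 46.6 CPM in blf13 and 14.5, 27.6 and 18.6 CPM in Bonus.

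**Figure D1:**
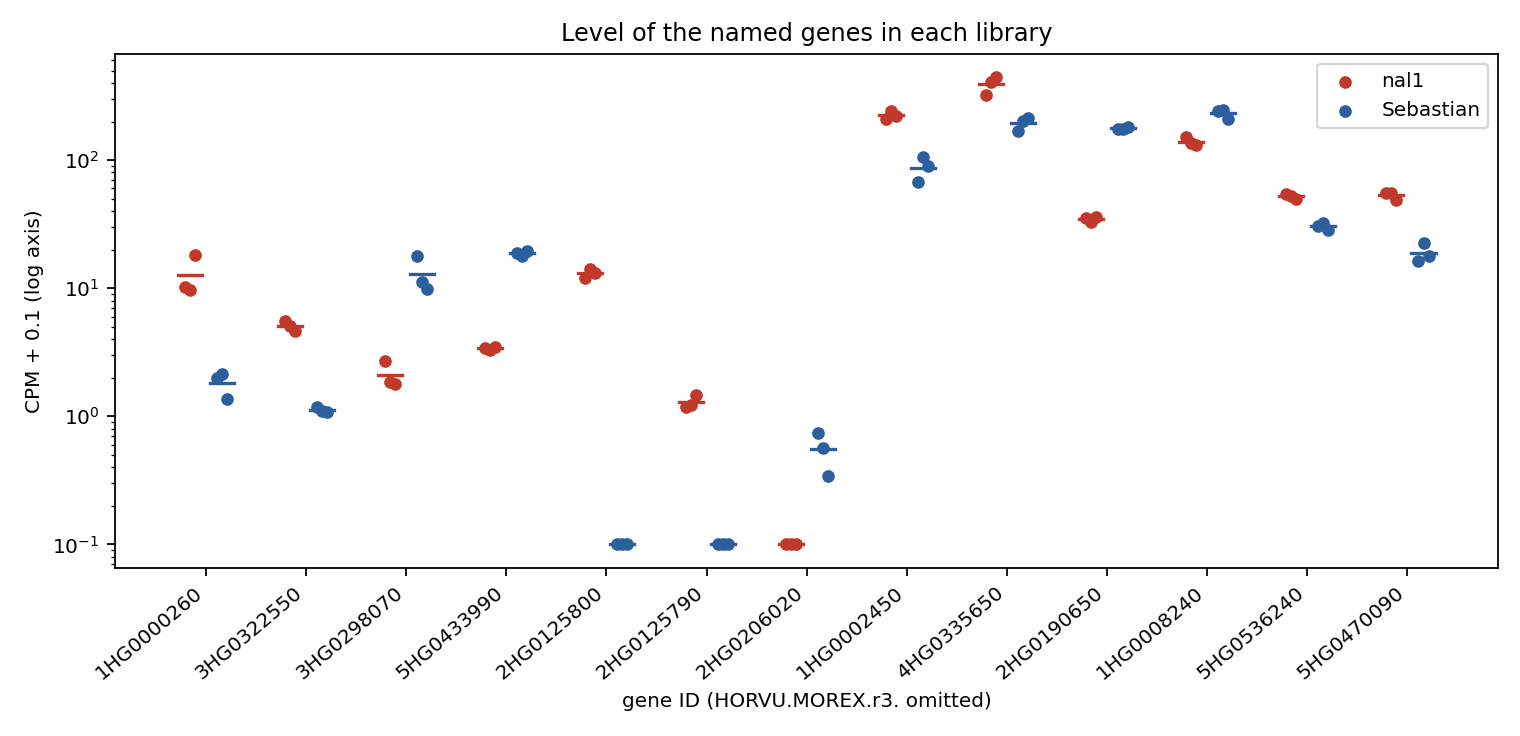
Levels of 13 genes in each nal1 and Sebastian library, as CPM + 0.1 on a log axis. Points are libraries and bars are means of 3, with genes at no count on the line of 0.1. For every gene all nal1 points lie on one side of all Sebastian points, because lack of overlap was a condition of their choice.

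Over all 22437 genes tested, 2590 (11.5%) changed at an adjusted p under 0.05 in edgeR's quasi-likelihood test. Of these, 1374 (6.12% of tested genes) were higher and 1216 (5.42%) were lower in nal1. The higher genes had a median level of 8.56 CPM, close to the 8.94 CPM of all tested genes, and 446 of them lay between 1.5- and 2-fold and 325 between 2- and 4-fold. The lower genes had a median of 55.6 CPM, and 604 of them (49.7%) changed by less than 1.2-fold. At 2-fold or more, 368 genes were higher (1.64% of tested genes) and 95 were lower (0.423%), a split of 79.5% to the higher side that was 57.9% with cyclic loess normalization, where 205 were higher and 149 lower. The nal1 and Sebastian libraries did not overlap in 1297 of the 1374 higher genes and in all 1216 lower genes. Such separation was common, as 33.9% of all tested genes showed it (16.2% higher and 17.7% lower in nal1), among them 5095 of the 19847 genes that did not pass the test.

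The number of changed genes depended on which library was left out. Without nal1 replicate 1 there were 1281 higher and 986 lower genes, and without Sebastian replicate 1 there were 1436 and 1285. Leaving out nal1 replicate 2 gave 530 higher and 434 lower genes, and leaving out nal1 replicate 3 gave 530 and 484. Leaving out Sebastian replicate 2 gave 494 and 375, and leaving out Sebastian replicate 3 gave 306 and 341. Genes that passed in the full comparison and in each of the 6 comparisons that left out 1 library numbered 273 higher (1.22% of tested genes) and 275 lower (1.23%), a set defined after the data were seen. All 13 genes shown by library in the plot of named genes belong to it, but they were themselves chosen from genes that had passed. Precision differed by level, with a median standard error of the log2 fold change of 0.40 under 1 CPM, 0.18 from 1 to 10 CPM, 0.08 from 10 to 100 CPM and 0.06 at 100 CPM or more. For 16156 of the genes that did not pass (81.4%), the log2 fold change plus or minus 2 standard errors stayed within 1 in both directions, so a 2-fold change lay outside that range. For 3511 others it did not.

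**Figure D2:**
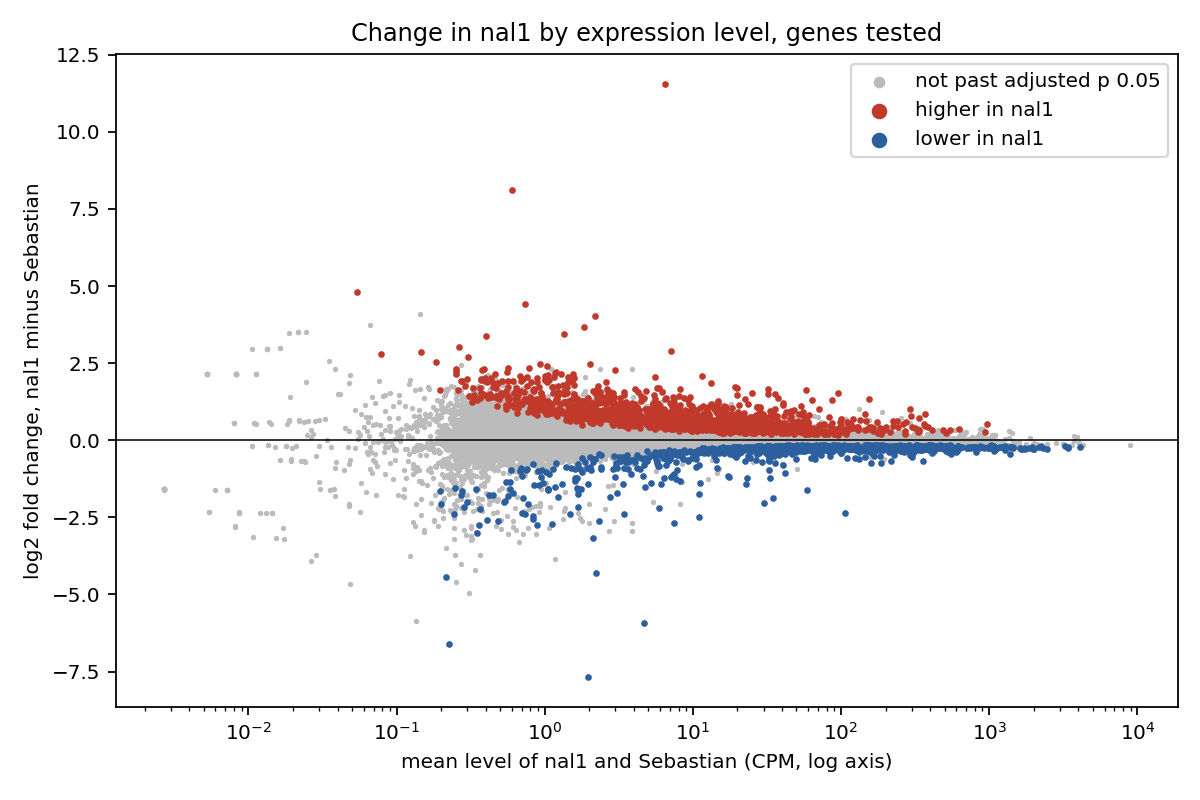
Log2 fold change, nal1 minus Sebastian, against the mean level of nal1 and Sebastian in CPM on a log axis, 1 point per gene tested. Genes past the adjusted p of 0.05 are coloured, and those lower in nal1 form a thin band close to 0 at the abundant end, where 412 were lower and 71 higher at 100 CPM or more (121 lower and 174 higher with cyclic loess normalization).

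Direction went with level in CPM, which also depends on gene length. The pattern was not particular to nal1, as medians in blf13 against Bonus went the same way in the same level classes. At 100 CPM or more the median log2 fold change was −0.093 in nal1 and −0.101 in blf13. From 1 to 10 CPM it was 0.107 in nal1 and 0.056 in blf13. At 100 CPM or more, 71 of 2082 tested genes were higher (3.41%) and 412 lower (19.8%) in nal1, a direction that turned to 174 higher and 121 lower with cyclic loess normalization. From 1 to 10 CPM, 610 of 7623 were higher (8.0%) and 144 lower (1.89%), against 347 and 231 with loess. Leaving out nal1 replicate 2, nal1 replicate 3, Sebastian replicate 2 and Sebastian replicate 3 in turn gave 125, 145, 107 and 99 lower genes at 100 CPM or more and 225, 230, 211 and 138 higher genes from 1 to 10 CPM. Each nal1 library was then set against each Sebastian library, changed genes or not. In all 9 pairs the median log2 difference of the genes of 100 CPM or more was below 0, between −0.13 and −0.038, and that of the genes of 1 to 10 CPM was above 0, between 0.05 and 0.12. The pairs share libraries and are not 9 independent results. Pairs of libraries of the same genotype, as later minus earlier replicate, had medians of −0.043 to 0.061 at 100 CPM or more and of −0.059 to 0.036 from 1 to 10 CPM. The order within such a pair is arbitrary, so these values are comparable in size and not in sign. The largest in size, 0.061 and −0.059, exceeded the smallest between genotypes, −0.038 and 0.05, both of nal1 replicate 1 with Sebastian replicate 1. Every other pair of a nal1 and a Sebastian library differed by more than the same-genotype pairs at both levels. The genes higher in nal1 took 4.10%, 4.38% and 4.44% of the counts of tested genes in the nal1 libraries and 3.17%, 2.93% and 2.7% in the Sebastian libraries. The lower genes took 18.7% in each nal1 library, against 20.9%, 21.6% and 21.7% in Sebastian. These shares describe genes chosen for their difference and are not a separate result.

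Other properties of the libraries moved with genotype. The 100 most abundant genes of a library took 17.5% to 18.1% of its counts in nal1 and 18.5% to 19.3% in Sebastian. Multimapping reads, which are counted for no gene, made up 1.46% to 1.5% of nal1 reads and 1.61% to 1.78% of Sebastian reads. Their part in the level pattern was not tested. With all libraries thinned to the depth of the shallowest, the median log2 fold change of the genes of 100 CPM or more was −0.088, against −0.093 at full depth. Cyclic loess normalization takes out any trend with level by construction, and with it the median was −0.0063.

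**Figure D3:**
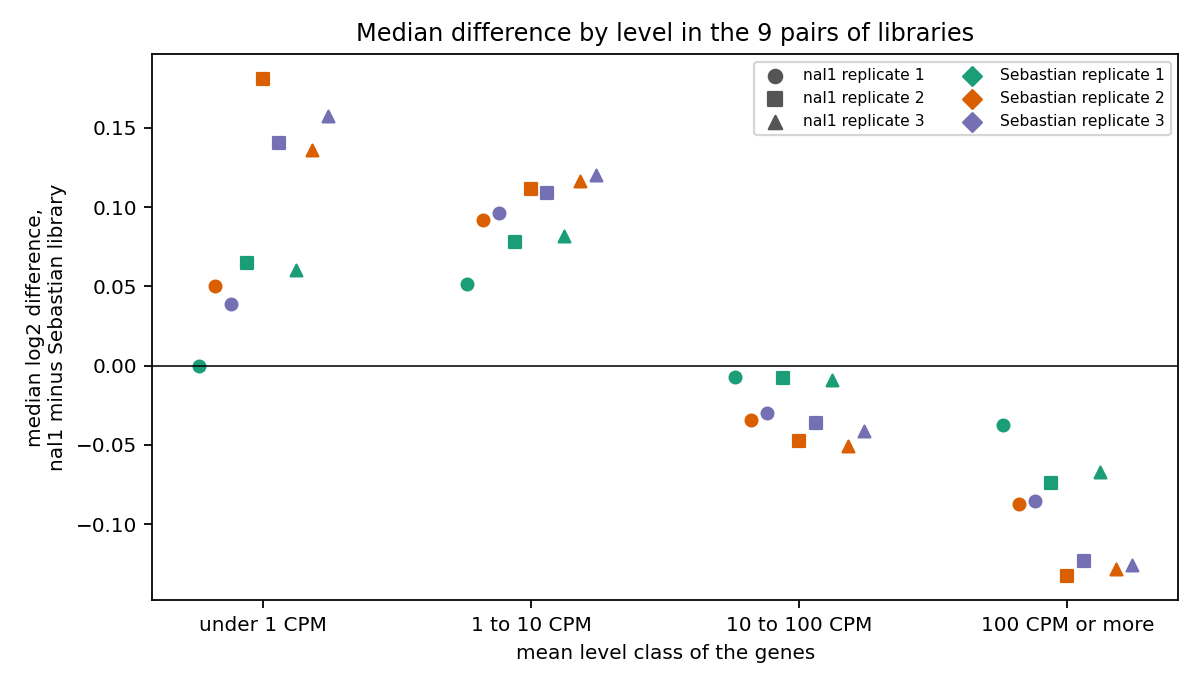
Median log2 difference between 1 nal1 and 1 Sebastian library (CPM + 0.1), for genes in 4 classes of mean level. Each point is 1 of the 9 pairs, with marker shape for the nal1 library and colour for the Sebastian library, and all 9 points lie above 0 from 1 to 10 CPM and below 0 at 10 CPM and above.

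Some genes were present in only 1 of the genotypes. Among changed genes, 3 had no count in Sebastian and 1 had none in nal1, all of them on 2H. That chromosome held 16.6% of tested genes, and those at ranks 3032 and 3033 are adjacent, so the shared chromosome is described without a test. In nal1, HORVU.MOREX.r3.2HG0125800 reached 11.9, 14.1 and 13.1 CPM (892 counts), with none in any Sebastian, blf13 or Bonus library. Its neighbour HORVU.MOREX.r3.2HG0125790 had 80 counts in nal1, at 1.07, 1.14 and 1.38 CPM, and likewise none in the other 9 libraries. Both genes thus passed the low-count filter through the nal1 libraries alone, and their adjusted p add no support beyond these counts. If the 3 Sebastian libraries are together credited with a floor of 3 counts, the nal1 levels were at least 502-fold and at least 45.0-fold higher (edgeR adjusted p = 7.60e-06 and 0.00135). HORVU.MOREX.r3.2HG0206020, at rank 11055, had no count in nal1 and 43 counts in Sebastian, at 0.646, 0.465 and 0.242 CPM, and was at least 8.49-fold lower by the same floor set on the nal1 libraries (edgeR adjusted p = 0.00894). It was present in blf13, at 0.692, 1.05 and 0.804 CPM, and in Bonus, at 0.202, 0.770 and 0.418 CPM. The third gene seen in nal1 and not in Sebastian, HORVU.MOREX.r3.2HG0106650, was named after its values were seen and had 8 counts in nal1, against 165 in blf13 and 95 in Bonus. These bounds take the counts of the other genotype as observed. The 95% exact conditional interval of the ratio, which covers counting error on both sides, starts at 407-fold and 35.8-fold for the pair and at 6.61-fold for HORVU.MOREX.r3.2HG0206020. Without the low-count filter 28 changed genes, in place of 4, had no count in 1 genotype, and their chromosomes were not examined. The number was 7 without nal1 replicate 1 or without Sebastian replicate 1, and 2 when the 6 libraries were fitted alone. HORVU.MOREX.r3.2HG0206020 was not tested in that last fit, so its test depended on having the blf13 and Bonus libraries in the fit.

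The 2H pair had neighbours that passed the test, lower on one side and higher on the other. HORVU.MOREX.r3.2HG0125780, at rank 3031 and so directly before the pair, was lower in nal1 (log2 fold change −1.56, SE 0.34, edgeR adjusted p = 0.0221). It passed in 2 of the 6 comparisons that left out 1 library, and did not pass with DESeq2 (DESeq2 adjusted p = 0.0693). HORVU.MOREX.r3.2HG0125770, at rank 3030 and so 2 places before the pair, had 0.268, 0.378 and 0.197 CPM in nal1, against 1.38, 1.29 and 1.10 CPM in Sebastian (log2 fold change −2.06, SE 0.27, edgeR adjusted p = 0.000944). On the other side, HORVU.MOREX.r3.2HG0125820, at rank 3035, had 33.5, 35.9 and 35.9 CPM in nal1 and 24.2, 28.7 and 27.0 CPM in Sebastian (log2 fold change 0.40, SE 0.08, edgeR adjusted p = 0.0197), and no count in blf13 or Bonus. The increase of 2HG0125820 passed the test in 3 of the 6 comparisons that left out 1 library, and with cyclic loess normalization its log2 fold change was 0.20 and did not pass (edgeR adjusted p = 0.28). These neighbours were all chosen after their values were seen.

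The longest stretch of changed genes lay on 5H, outside the 2H region. There, 7 consecutive tested genes, at ranks 2747 to 2754, were all lower in nal1, with log2 fold changes of −4.44 to −1.73 (edgeR adjusted p = 0.00290 to 0.0256). An 8th ID within these ranks was not tested. They were weakly expressed, at 0 to 0.604 CPM in nal1 libraries and 0.358 to 1.68 CPM in Sebastian libraries. Summed over the 7 genes, the level was 1.74, 0.757 and 0.934 CPM in nal1, against 6.93, 5.83 and 5.32 CPM in Sebastian. Every nal1 sum was below every Sebastian sum, and the 7 genes together had 69 counts in nal1 and 653 in Sebastian. The stretch is made of genes called lower, and all 1216 lower genes lacked overlap, so the separation of the sums is not a separate result. The summed level was 9.68, 10.4 and 13.6 CPM in blf13 and 10.6, 5.47 and 11.8 CPM in Bonus. None of the 7 genes passed the test between blf13 and Bonus, where only 1.21% of tested genes were higher and 1.98% lower. For 6 of the 7 genes the difference between both responses passed the interaction test, against 5.22% of all tested genes and 20.1% of the lower genes. The 7 genes were chosen for their fall in nal1, which enters the interaction, so this count follows in part from that choice.

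The stretch was found after the data were seen. The gene with the largest fall within it, HORVU.MOREX.r3.5HG0446980, had 1 count over the nal1 libraries and 47 over the Sebastian libraries (edgeR adjusted p = 0.00290). Of the 7 genes, 3 passed the test in each of the 6 comparisons that left out 1 library. HORVU.MOREX.r3.5HG0446990 and HORVU.MOREX.r3.5HG0447000 passed in 2 of them. Against a fold of 1.5 (glmTreat), 5 of the 7 did not pass, and with libraries thinned to equal depth HORVU.MOREX.r3.5HG0446990 did not (edgeR adjusted p = 0.0625). Reads were counted without regard to strand, so it cannot be told from these counts whether the 7 IDs share transcripts.

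**Figure D4:**
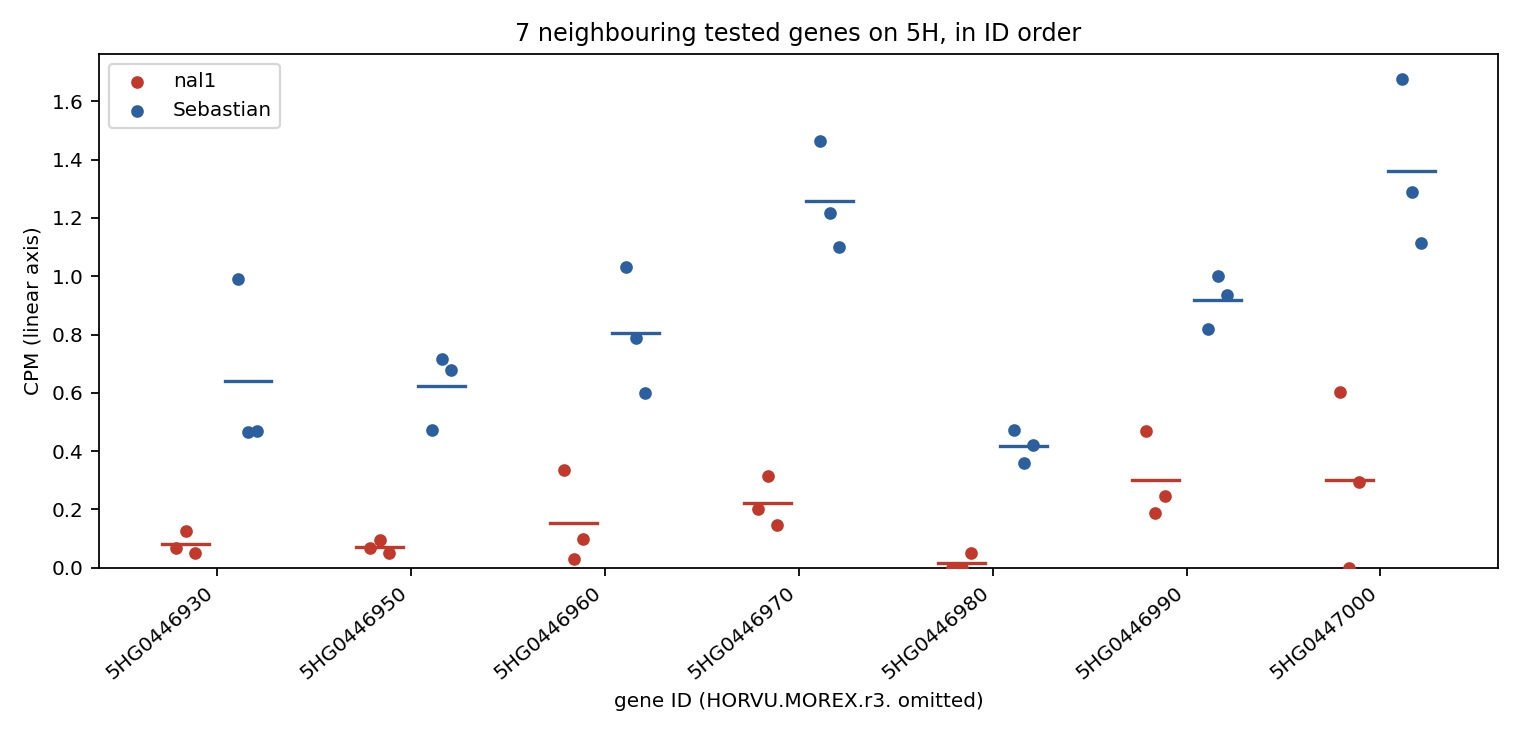
Levels in CPM, on a linear axis, of 7 consecutive tested genes on 5H in each nal1 and Sebastian library. Points are libraries and bars are means of 3, and in each gene all nal1 points, at most 0.604 CPM, lie below all Sebastian points of that gene. The same separation held in all 1216 genes lower in nal1.

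Such stretches were rare. On the 7 chromosomes, 1127 higher and 1041 lower genes had no adjacent tested gene changed in the same direction, and 177 runs held 2 genes. There were 15 runs of 3 genes, 2 of 4, 1 of 5 and 1 of 7. The run of 5 lay on 1H at ranks 2749 to 2765, was higher in nal1 and had log2 fold changes of 0.69 to 1.71. Adjacent tested genes that had both changed moved the same way in 223 of 366 pairs (60.9%). Of changed genes that were 2, 5 and 20 tested genes apart, 54.0%, 52.8% and 54.0% moved the same way. This is a description with no test, and it also counts neighbours whose reads could overlap.

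By chromosome, the largest changes were most numerous on 2H and 5H. Of the 73 genes changed by 4-fold or more, 43 higher and 30 lower in nal1, 2H held 19 (26.0%, against 16.6% of tested genes), of which 9 were higher and 10 lower. On 5H there were 15 (20.5%, against 15.9% of tested genes), of which 6 were higher and 9 lower. Of these 15, 7 lay at ranks 2701 to 2800, a window that holds the 5H stretch described above. They are not the same 7 genes, as HORVU.MOREX.r3.5HG0446990 of the stretch changed by less than 4-fold (log2 fold change −1.73). The 5H count thus rests in part on 1 local stretch. The other chromosomes held 5 to 11 each, 10 of the 11 on 4H being higher. These counts were not tested. Most of these genes were weakly expressed, and in 39 of the 43 higher and 24 of the 30 lower genes at least 1 genotype was under 1 CPM. With cyclic loess normalization the 4-fold changes were 21 higher and 41 lower genes, and 41 and 74 when the 6 libraries were fitted alone. Without nal1 replicate 1 or Sebastian replicate 1, 80 and 101 genes were higher by 4-fold or more, and without Sebastian replicate 3 the number was 25.

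Whether the nal1 response differed from that of the second mutant line was tested directly, as the difference between nal1 minus Sebastian and blf13 minus Bonus. Both comparisons share no library. Among all tested genes, 5.22% differed in response at an adjusted p under 0.05. In blf13 against Bonus, 1.21% of tested genes were higher and 1.98% lower. Among genes changed in nal1 these were 405 of the 1374 higher genes (29.5%) and 245 of the 1216 lower genes (20.1%). The nal1 and Sebastian libraries enter both tests, so a share above 5.22% follows in part from the choice of changed genes. The 405 genes had a median log2 fold change of 0.63 in nal1 and −0.28 in blf13, and the 245 lower genes had medians of −0.60 in nal1 and 0.17 in blf13. Opposite signs in these subsets follow in large part from their choice by the interaction. Over all 1374 genes higher in nal1, the median log2 fold change in blf13 was 0.04, and 18 were also higher and 44 lower in blf13. Over all 1216 genes lower in nal1, the median in blf13 was −0.08, and 34 were higher and 79 were also lower in blf13. The number of genes that changed in nal1 and differed in response was 650 in all, and leaving out nal1 replicate 2, nal1 replicate 3, Sebastian replicate 2 and Sebastian replicate 3 in turn gave 411, 358, 356 and 251.

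The genes with the smallest interaction p at 1 CPM or more in all 4 genotypes included 2HG0190650 and 5HG0433990 among those lower in nal1. The decrease of HORVU.MOREX.r3.5HG0433990 in nal1 stood beside an increase in blf13, with 33.3, 33.6 and 32.55 CPM in blf13 and 17.3, 15.3 and 18.6 CPM in Bonus. Among those higher in nal1, HORVU.MOREX.r3.5HG0536240, at rank 11678 on 5H, had 54.1, 52.8 and 49.25 CPM in nal1 and 30.3, 32.0 and 28.5 CPM in Sebastian, a difference of 1.72-fold with no overlap (log2 fold change 0.78, SE 0.07, edgeR adjusted p = 2.26e-05). The same gene had 26.8, 29.4 and 30.0 CPM in blf13, lower than the 35.6, 34.0 and 37.5 CPM of Bonus (log2 fold change −0.31, SE 0.07, edgeR adjusted p = 0.0254). HORVU.MOREX.r3.5HG0470090, at rank 5063 on 5H, had 54.9, 55.7 and 48.5 CPM in nal1 and 16.3, 22.5 and 17.7 CPM in Sebastian, a 2.81-fold difference (log2 fold change 1.49, SE 0.13, edgeR adjusted p = 5.41e-05). It was at 9.43, 10.9 and 10.6 CPM in blf13 and 13.6, 19.1 and 13.4 CPM in Bonus (log2 fold change −0.59, SE 0.15, edgeR adjusted p = 0.0478).

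**Figure D5:**
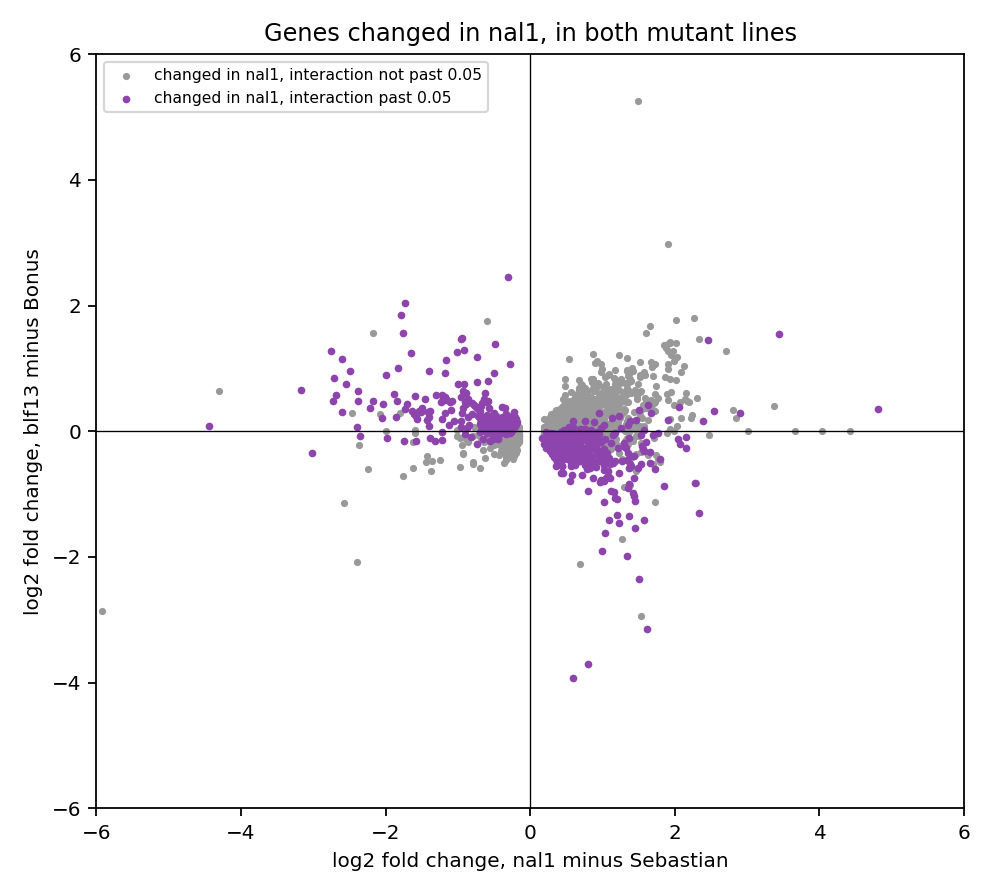
Log2 fold changes of genes changed in nal1, with nal1 minus Sebastian on the x axis and blf13 minus Bonus on the y axis. Purple points differed in response by the interaction test (405 higher and 245 lower in nal1), grey points did not pass it, and 4 genes lie beyond the axis limit of 6.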

How the data were processed

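The deposited files hold raw read counts per gene for each library, laid out as STAR writes them. The submitters' processing notes list STAR 2.7.3a. For trimming, filters and genome build, nothing is given in the sources used here. Multimapping reads and reads over more than 1 gene are left uncounted in such output, which lowers the counts of near-identical copies. The kit in the labels does not mark strand (50.5% to 50.7% of reads on one strand), so column 2, which ignores strand, was used. The 4 summary lines of each file, 18.1% to 23.3% of the reads of nal1 and Sebastian libraries, were left out.

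Counts were tested with edgeR 4.0.16 (R 4.3.3): TMM, filterByExpr, quasi-likelihood F test, 1 coefficient per genotype over all 12 libraries with a shared spread, Benjamini-Hochberg adjustment over 22437 genes. CPM use TMM library sizes. Standard errors come from the F statistic, and 180 genes with an F of 0 have none. DESeq2 1.42.0 and the other settings are given below. Between replicates, the chi-square statistic over its degrees of freedom was 3.88 to 8.74, so all were counted as separate samples. The test was checked on simulated counts with known changes in 50 genes per fold. It recovered 44% of 1.5-fold, 60% of 2-fold and 92% of both 4-fold and 8-fold changes, and 8 of 152 calls were false. Whether these rates hold for the measured libraries, where 2590 genes passed, was not tested. Named genes are up to 2 higher and 2 lower per question, past an adjusted p of 0.05 without overlap of libraries: largest change at 1 CPM or more in both genotypes, no count in 1 genotype, largest change at 100 CPM or more, and smallest interaction p. Genes and rules were chosen with earlier results of these data known. Lists of auxin, cell cycle, leaf width, cell wall and photosynthesis genes had 0 matched IDs and were not analysed.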

Additional observations from a re-analysis of the deposited data

Results flagged for a closer look

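Results are listed here where the change in nal1 against Sebastian differed from that in blf13 against Bonus, by the test of the difference itself (edgeR quasi-likelihood interaction, adjusted p under 0.05). That held for 650 genes changed in nal1. Of the genes named above, HORVU.MOREX.r3.5HG0433990 had an interaction of −3.46 on the log2 scale (SE 0.12, adjusted p = 1.70e-09) and HORVU.MOREX.r3.2HG0190650 of −2.28 (SE 0.07, adjusted p = 1.70e-09). For HORVU.MOREX.r3.3HG0298070 it was −3.27 and for HORVU.MOREX.r3.1HG0008240 it was −1.92, both lower in nal1. For HORVU.MOREX.r3.2HG0206020 it was −7.41, a value that depends on the prior count because the gene has no count in nal1. Among genes higher in nal1 it was 3.10 for HORVU.MOREX.r3.3HG0322550, 2.62 for HORVU.MOREX.r3.1HG0000260 (adjusted p = 0.0411), 2.25 for HORVU.MOREX.r3.1HG0002450, 2.08 for HORVU.MOREX.r3.5HG0470090, 1.38 for HORVU.MOREX.r3.4HG0335650 and 1.10 for HORVU.MOREX.r3.5HG0536240. HORVU.MOREX.r3.1HG0000260 was under 0.5 CPM in every blf13 and Bonus library.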

How the results depend on the processing

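With RLE size factors, DESeq2 and the replicate block, the counts of higher, lower and at least 2-fold changed genes stayed within 1.5 times the reported ones, as did the genes that differed from blf13. Without the low-count filter there were 2115 higher genes, 563 and 204 genes higher and lower by at least 2-fold, 1208 that differed from blf13 and 28 with no count in 1 genotype. Tested with glmTreat against a fold of 1.5, 40 genes were higher and 37 lower (39 and 37 by at least 2-fold), 42 differed from blf13 and 2 had no count in 1 genotype. With cyclic loess normalization 205 genes were higher and 149 lower by at least 2-fold, and the median log2 fold change of genes of 100 CPM or more was −0.0063. With the 6 libraries alone, 157 genes were lower by at least 2-fold and 2 had no count in 1 genotype, and no interaction could be fitted. Leaving out 1 library at a time gave 306 to 1436 higher and 341 to 1285 lower genes, 101 to 506 and 72 to 102 at least 2-fold higher and lower, 251 to 557 that differed from blf13 and 3 to 7 with no count in 1 genotype. The median at 100 CPM or more was −0.11 to −0.083 without 1 library. Why the counts depend on the library left out was not tested. Of 193 values of the 13 named genes under these settings, 189 kept direction and passed, 4 did not pass glmTreat and 0 changed sign. These values include those of 2HG0125800 and 2HG0125790, which passed the low-count filter through the nal1 libraries alone. Of 147 values of the 7 genes of the 5H stretch and 3 neighbours of the 2H pair, 119 kept direction and passed, 28 did not pass and 0 changed sign. All genes of both tallies were chosen from these data for having passed, so the tallies follow in large part from that choice. Same-numbered nal1 and Sebastian libraries did not deviate together (correlations of −0.135, −0.042 and 0.085), so the numbers were not taken to pair libraries. With the replicate block 1367 genes were higher and 1245 lower. With a replicate block within each cultivar, added after the data were seen, 1256 were higher, 1047 lower and 151 lower by at least 2-fold. Thinned to the shallowest library, 1002 genes were higher and 882 lower among 20626 genes tested.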
